A study of Mus musculus with 24 samples.

Results

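The set described here gathers genes whose symbols are those of ciliary protein families, and 36 of them were measured in mouse lung, out of 9659 genes named on the array. Most build, move or regulate cilia, and a few, such as Spag5 and Spag9, are known for other roles. They were chosen by symbol alone: names starting with Dnah, Dnai, Dnal, Tekt, Rsph, Spag, Bbs or Ift and a digit, and the single genes Foxj1, Tppp3, Ccdc39, Ccdc40, Rfx2, Rfx3, Ak7 and Spef2. A probe also had to have a detection score over 0.95, the score of a probe brighter than nearly all negative controls, on at least 3 arrays. All 45 probes with such a name passed, and the lowest, a second probe for Dnaic1, was detected on 5 arrays. Foxj1, Ccdc40, Rfx3, Ak7 and Spef2 have no named probe and were not analysed here. Whole lungs came from male C57BL/6 mice aged 6 to 8 weeks, either wild type or Rag-1 null. For each of the 2 genotypes there were control lungs and lungs taken 1, 4 or 10 days after lipopolysaccharide (LPS), a component of the outer membrane of Gram-negative bacteria. Each of the 8 groups had 3 arrays, 24 in all, and the Rag-1 null mice carry their deletion in every cell, so they lack mature T and B cells with or without LPS. The labels do not say that the 3 arrays of a group came from separate animals, so the p-values reflect how much these samples vary, and part of that variation may be technical.

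Motile cilia are hair-like projections that beat together on multiciliated cells of the airways and carry mucus outwards. Their core, the axoneme, is a ring of microtubule doublets. Dynein arms bend it, radial spokes and the central apparatus time the strokes, and tektins run along the doublets. Intraflagellar transport carries building blocks into the cilium, and the BBSome carries membrane proteins. Factors of the FOXJ1 and RFX families switch on the genes of the axoneme, and RFX proteins bind a paired sequence called the X-box. Transport and BBSome genes also serve the single, immotile cilium of many other cell types. Some genes with a Spag symbol have other roles: Spag5 encodes a protein of the mitotic spindle and Spag9 a scaffold for stress kinases. By role, the measured genes were 5 axonemal dynein chains, 4 tektins, 5 genes of the radial spoke or central apparatus, 11 of intraflagellar transport, 4 of the BBSome, 4 other Spag genes, the other ciliary proteins Ccdc39 and Tppp3, and 1 transcription factor, Rfx2.

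RefSeq promoter windows, 250 bases before to 50 after the annotated start, were available for 29 of the 36 genes, on the mouse build GRCm38.p6. Ift122, Ift80, Ift81, Rsph1, Rsph4a, Spag1 and Tppp3 were not among them. An X-box was searched on both strands as GTNNCC, 0 to 3 bases and NGNAAC, and it was present for 11 of the 29 genes (37.9%) and for 1606 of all 27025 genes with a window (5.9%). The RFX half-site GTTGCC, on either strand and often inside an X-box, was present for 10 of the 29 (34.5%) and for 14.1% of all genes. At least 1 of these motifs occurred for 15 of the 29 genes (51.7%) and for 17.7% of all genes. The forkhead motif TGTTTAC, on either strand, was found for 0 of the 29 genes and for 4.1% of all genes. A match describes letters and not a bound site. The 250 bases before the start are shown 5′ to 3′ for the factor Rfx2, for 4 genes that fell at 1 or more days, and for Spag5, which rose and also has a match; capitals mark the X-box letters.
Rfx2, chr17:56831009-56831258, minus strand: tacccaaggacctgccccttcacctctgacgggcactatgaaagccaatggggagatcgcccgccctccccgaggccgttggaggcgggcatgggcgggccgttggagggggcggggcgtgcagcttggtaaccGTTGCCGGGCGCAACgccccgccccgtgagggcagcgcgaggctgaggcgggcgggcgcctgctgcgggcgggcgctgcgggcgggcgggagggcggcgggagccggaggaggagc
Dnaic1, chr4:41569544-41569793, plus strand: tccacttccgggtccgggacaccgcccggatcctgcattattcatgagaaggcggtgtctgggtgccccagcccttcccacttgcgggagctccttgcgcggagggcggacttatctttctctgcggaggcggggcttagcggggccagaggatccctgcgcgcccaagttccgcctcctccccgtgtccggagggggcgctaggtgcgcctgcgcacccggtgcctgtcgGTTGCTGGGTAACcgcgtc
Tekt2, chr4:126325647-126325896, minus strand: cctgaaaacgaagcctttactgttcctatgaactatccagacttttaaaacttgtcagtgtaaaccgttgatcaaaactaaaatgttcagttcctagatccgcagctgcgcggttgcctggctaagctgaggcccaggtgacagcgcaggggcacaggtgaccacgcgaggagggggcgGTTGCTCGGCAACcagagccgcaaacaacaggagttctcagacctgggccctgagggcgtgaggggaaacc
Ift22, chr5:136907900-136908149, plus strand: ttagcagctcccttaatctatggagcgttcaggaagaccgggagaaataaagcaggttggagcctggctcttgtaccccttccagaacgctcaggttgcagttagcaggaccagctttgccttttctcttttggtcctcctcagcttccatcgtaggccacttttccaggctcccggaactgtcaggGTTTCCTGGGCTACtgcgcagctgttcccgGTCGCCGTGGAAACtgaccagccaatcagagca
Bbs7, chr3:36613390-36613639, minus strand: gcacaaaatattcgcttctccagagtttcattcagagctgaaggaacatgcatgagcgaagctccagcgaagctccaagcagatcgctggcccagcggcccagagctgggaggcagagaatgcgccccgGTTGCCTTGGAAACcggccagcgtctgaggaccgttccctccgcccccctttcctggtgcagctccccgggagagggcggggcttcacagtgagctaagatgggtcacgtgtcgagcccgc
Spag5, chr11:78301341-78301590, plus strand: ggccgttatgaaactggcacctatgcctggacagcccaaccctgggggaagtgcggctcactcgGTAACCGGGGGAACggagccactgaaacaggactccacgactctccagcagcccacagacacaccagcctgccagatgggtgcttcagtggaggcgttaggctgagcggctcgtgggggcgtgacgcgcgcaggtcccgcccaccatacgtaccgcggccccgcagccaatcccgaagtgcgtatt
As printed, the capitals for Rfx2, Dnaic1, Tekt2 and Bbs7 begin with GTTG. The match lies on the opposite strand for Dnaic1 and Tekt2, on the printed strand for Rfx2 and on both for Bbs7. Ift22 has a pair of matches, and Spag5 has 1.

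Levels are log2 values of the deposited bead signals after background correction and quantile normalization, and each gene is read from its brightest probe. Differences are log2 fold changes ± standard error from 1 limma model over all 24 arrays, with p-values adjusted by Benjamini-Hochberg over the 13544 probes tested, and "fell" or "rose" is used for an adjusted p under 0.05. Over the 6 comparisons of LPS with control in 1 test, 24 of the 36 genes varied by the limma F test, against 53.1% of all probes. Arrays had 9517 to 12125 detected probes, and their number limits the precision. Markers of alveolar type 2 cells, which make surfactant, were all measured, 14 of 14. The mean level of 9 B and T cell genes ran from 4.46 to 4.65 in Rag-1 null arrays and from 5.21 to 6.37 in wild type arrays, without overlap. In 7 groups the replicate arrays correlated at 0.966 or more. In wild type lung at day 1 the first array stood apart, with correlations of 0.858 and 0.914 against the other two, which correlated at 0.969. The mean of 4 genes of oesophageal squamous epithelium was 6.03 and 5.62 in those other 2 arrays and 4.46 to 4.91 in all remaining arrays. Largely 1 gene set this rise: against wild type control, 1 of the 4 rose, by 3.16, and their median difference was 0.07. The part of this signal in the cilium results was not tested. Counts that move without the first wild type day 1 array are given both ways. Those without it rest on the other 2 for that group, the arrays with the high squamous mean.

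At day 1 after LPS, wild type lungs had lower levels of genes from nearly every part of the cilium. Of the 36 genes, 20 fell and 1 rose, where 39.2% of all probes passed. The median log2 fold change was -0.63 over the 36 genes and -0.03 over the 9606 named genes tested, 23.9% of which fell. In the other comparisons the median over all named genes lay between -0.04 and 0.04. By role, 4 of 5 spoke and central apparatus genes, 7 of 11 transport genes, 3 of 4 BBSome genes, 3 of 5 dyneins, both other ciliary proteins and Rfx2 fell, and 0 of 4 tektins passed. Spag9 rose by 0.82 ± 0.15 (adjusted p = 0.000107, limma). Its other probes differed in direction: the mean of one went from 4.97 in control to 5.79 at day 1, and that of another from 5.88 to 5.65. In bulk tissue, fewer ciliated cells and less RNA in each cannot be told apart. Without the first day 1 array the count was 23 fallen and 1 risen, with 45.3% of all probes called, and with only the 6 compared arrays 10 fell and 1 rose, with 15.6%. Within each slide the sign was that of the mean, except that Ift43, Rsph3a and Bbs2 had it on 2 of 3 slides. Dnaic1, Rsph4a, Bbs7, Ccdc39, Dnah8 and Ift22 were detected on 1 of the 3 day 1 arrays, and Ift81 and Bbs2 on 2. For the first 6 of these a fold is given as a lower bound, with each day 1 array at no less than its dimmest detected probe. The 14 measured markers of alveolar type 2 cells, a cell type without motile cilia, fell in 11 cases (median -1.35), and their summed level ran from 33360 to 40010 in control lung and from 27160 to 28410 at day 1. Their part in the cilium result was not tested.

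Rag-1 null lungs at day 1 had 6 genes that fell and 1 that rose, where 16.9% of all probes passed. The median over the 36 genes was -0.38, and 34 of them had a value below 0. The genes that fell were Tppp3, Rfx2, Dnaic1, Tekt2, the inner-arm dynein light intermediate chain Dnali1 (at least 1.22-fold) and the transport gene Ift122 (at least 1.26-fold), both detected on 1 of 3 day 1 arrays. Spag9 rose by 0.49 ± 0.15. Dnaic1, Dnali1, Spag9, Tppp3 and Rfx2 were called in the same direction in both genotypes, which is 23.8% of the wild type calls and 71.4% of the Rag-1 null calls. The overlap was not counted over all probes, so it is not read as a trait of the cilium genes. The Rag-1 null count rests on the spread taken from other groups: without the first wild type day 1 array 17 genes passed (24.1% of all probes), and with only the compared arrays 23 passed (31.9%), all but Spag9 lower. With array weights, which count an array less the further it lies from its group, 22 passed (36.2%). Without Rag-1 null control replicate 3 or day 1 replicate 2, 4 passed, a count given without its share of all probes. The added calls included Rsph1, Rsph3a, Rsph4a and Rsph9 in all 3 fits. Of the 14 alveolar type 2 markers, 10 fell at day 1 (median -0.94), with a summed level from 40100 to 41540 in control lung and from 17840 to 24700 at day 1, and their part was not tested.

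**Figure D1:**
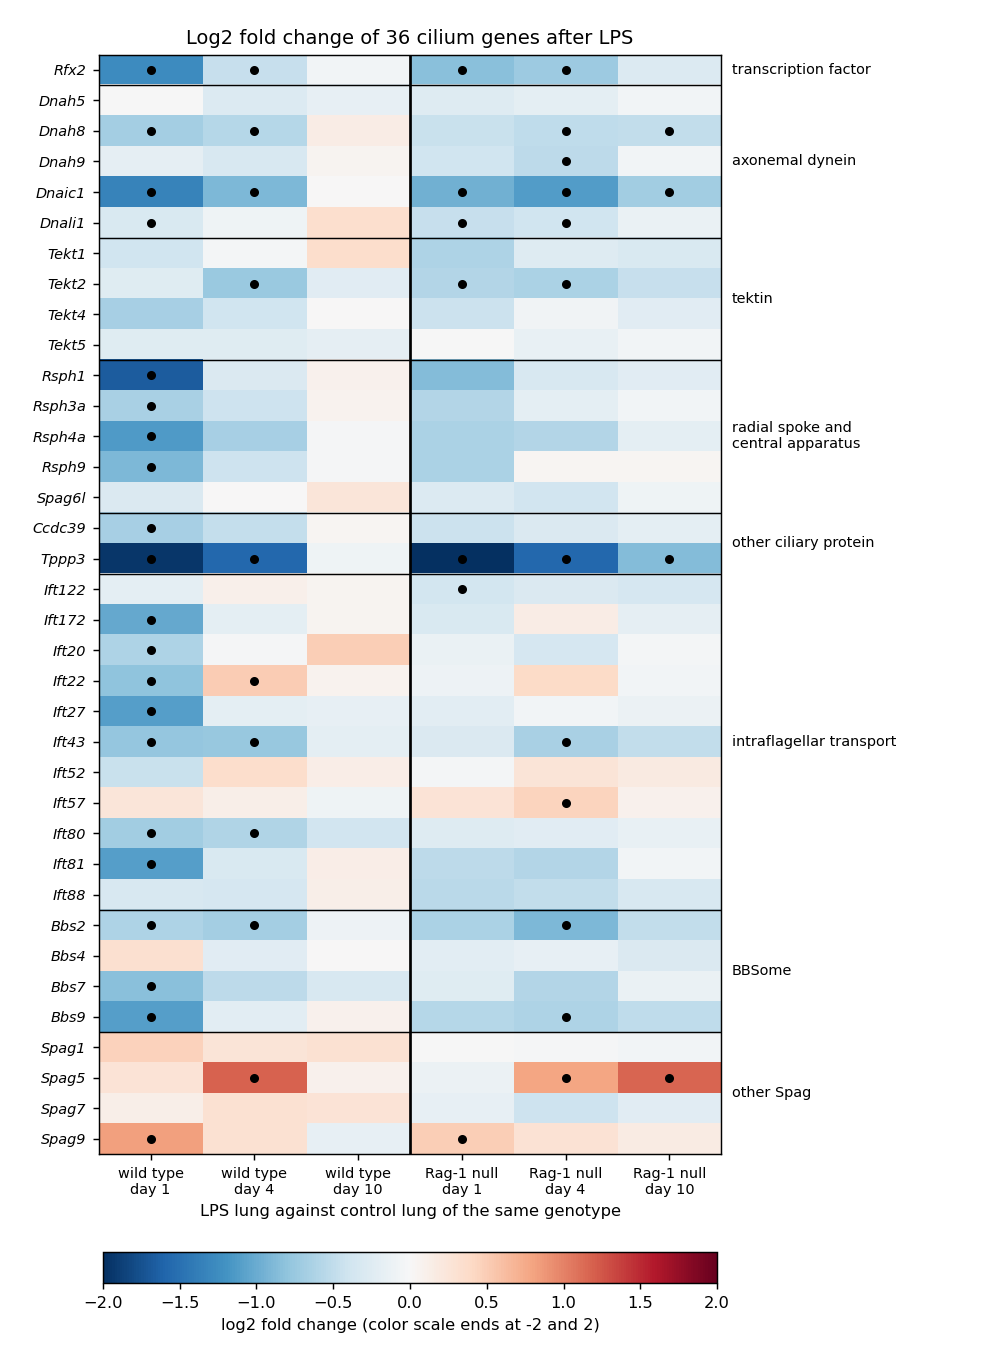
Log2 fold change of each of the 36 genes (rows, by role) in LPS lung against control lung of the same genotype at days 1, 4 and 10 (columns); blue is lower, red is higher, and a black dot marks an adjusted p under 0.05. Wild type day 1 has 21 dots and wild type day 10 has 0, while Rag-1 null day 10 keeps 4.

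Tppp3 encodes a tubulin-binding protein that is abundant in multiciliated cells, and it changed more than any other gene here at day 1 in either genotype. Its wild type levels were 8.82, 8.70 and 8.58 in control lung, 7.06, 6.53 and 6.70 at day 1, 6.79, 7.44 and 7.14 at day 4, and 8.72, 8.59 and 8.52 at day 10. The Rag-1 null levels of Tppp3 were 8.78, 8.60 and 8.79 in control lung, 6.61, 6.56 and 6.99 at day 1, 7.36, 7.07 and 7.01 at day 4, and 7.67, 7.99 and 7.92 at day 10. Every day 1 and day 4 array lay below every control array, wild type day 10 overlapped with control, and Rag-1 null day 10 lay between day 4 and control with no overlap. The group mean went from 8.70 ± 0.12 (SD, n = 3) to 6.76 ± 0.27 in wild type and from 8.72 ± 0.11 to 6.72 ± 0.24 in Rag-1 null lung. Tppp3 thus fell 3.83-fold at day 1 in wild type lung (-1.94 ± 0.17, adjusted p = 1.1e-08, limma) and 4.02-fold in Rag-1 null lung (-2.01 ± 0.17, adjusted p = 2.22e-08). At day 4 it was 2.98-fold lower in each genotype. At day 10 it was 1.82-fold lower in Rag-1 null lung (-0.87 ± 0.17, adjusted p = 0.00134), and the wild type difference was -0.09 ± 0.17 (adjusted p = 0.863).

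Rfx2, the one measured transcription factor of the group, had wild type levels of 7.04, 6.99 and 7.10 in control lung, 5.52, 5.87 and 5.98 at day 1, 6.41, 6.65 and 6.70 at day 4 and 7.17, 6.92 and 6.89 at day 10. Rag-1 null lungs had Rfx2 levels of 7.10, 7.03 and 7.16 in control lung, 6.32, 6.28 and 6.20 at day 1, 6.57, 6.26 and 6.26 at day 4 and 6.81, 6.96 and 6.67 at day 10. All day 1 and day 4 arrays lay below the controls of their genotype, and the wild type day 1 arrays lay below all other arrays. Rfx2 fell by 1.25 ± 0.14 on the log2 scale at day 1 in wild type lung (adjusted p = 2.98e-07, limma) and by 0.83 ± 0.14 in Rag-1 null lung (adjusted p = 0.000166). At day 4 it was lower by 1.37-fold in wild type and 1.66-fold in Rag-1 null lung. Its day 10 differences from control, -0.05 in wild type and -0.28 in Rag-1 null lung, did not pass.

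Dynein arms were represented by the outer-arm intermediate chain Dnaic1, the outer-arm heavy chains Dnah5 and Dnah9, the heavy chain Dnah8, known from sperm flagella, and Dnali1. Wild type levels of Dnaic1 were 5.92, 6.01 and 6.04 in control lung, 5.04, 4.50 and 4.41 at day 1, 4.85, 5.15 and 5.28 at day 4, and 6.32, 5.90 and 5.77 at day 10. Rag-1 null levels were 6.08, 6.04 and 6.03 in control lung, 5.16, 4.89 and 5.20 at day 1, 5.26, 4.95 and 4.57 at day 4, and 5.19, 5.27 and 5.59 at day 10. All Rag-1 null LPS arrays, day 10 included, lay below all control arrays, while wild type day 10 overlapped with control. At day 1 Dnaic1 was at least 2.21-fold lower in wild type lung (fitted difference -1.34 ± 0.19, adjusted p = 8.61e-06, limma) and fell by 0.96 ± 0.19 in Rag-1 null lung (adjusted p = 0.00095). Dnah8 was at least 1.38-fold lower at day 1 in wild type lung. In Rag-1 null lung it did not pass at day 1 and was 1.42-fold lower at day 4. Its Rag-1 null levels were 4.75, 4.71 and 4.65 at day 1 and 4.74, 4.71 and 4.46 at day 4, and those days were not tested against each other. Dnali1 passed at day 1 in wild type lung, where it was detected on 1 control array and on 0 day 1 arrays, so no fold is given. Dnah9 passed at day 4 in Rag-1 null lung alone, at least 1.24-fold lower, a bound set against the dimmest detected probes because 0 of 3 arrays detected it there. Its day 4 response was not shown to differ between the genotypes, since no gene passed that test. Dnah5 passed in none of the 6 comparisons with control by limma, with differences from -0.28 to -0.01.

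**Figure D2:**
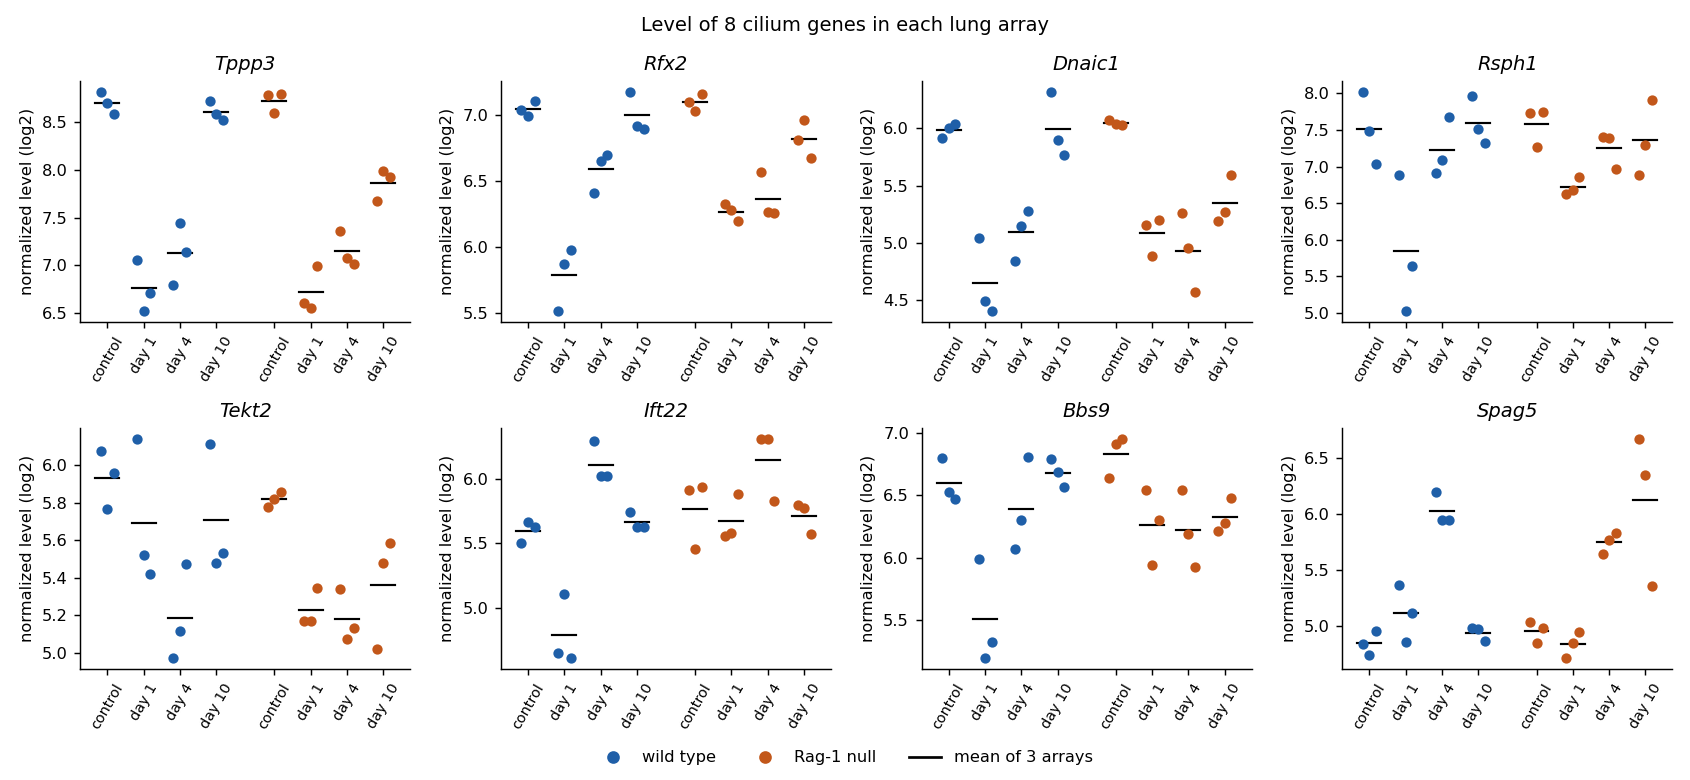
Normalized log2 level of 8 genes (1 panel each) in every array, by genotype and day after LPS; points are arrays and black lines are means of 3 arrays. Tppp3, Rfx2 and Dnaic1 are low at days 1 and 4 in each genotype, and Spag5 is high at day 4 in each genotype and in the Rag-1 null arrays of day 10.

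Among the radial spoke genes, the spoke-head gene Rsph1 had the largest fold in wild type lung at day 1. Its wild type levels were 8.02, 7.48 and 7.03 in control lung, 6.89, 5.03 and 5.63 at day 1, 6.90, 7.09 and 7.67 at day 4 and 7.96, 7.52 and 7.32 at day 10. Its Rag-1 null levels were 7.73, 7.26 and 7.75 in control lung, 6.62, 6.68 and 6.86 at day 1, 7.40, 7.39 and 6.97 at day 4 and 6.88, 7.29 and 7.90 at day 10. The day 1 arrays lay below the controls in each genotype, the first wild type day 1 array only just so, and the day 4 and day 10 arrays overlapped with control. Rsph1 fell by 1.66 ± 0.35 in wild type lung at day 1 (adjusted p = 0.000565, limma). The Rag-1 null difference was -0.86 ± 0.35 and did not pass (adjusted p = 0.0947). In wild type lung at day 1 the spoke-head gene Rsph4a was at least 1.80-fold lower, the spoke-head gene Rsph9 fell 1.86-fold and the spoke-stalk gene Rsph3a 1.56-fold. Spag6l, of the central apparatus, did not pass in any comparison of LPS with control. Ccdc39, which helps set the spacing of dynein arms along the doublet, was at least 1.31-fold lower in wild type lung at day 1.

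Tekt2 was the one tektin that passed by its brightest probe in a comparison with control. Its levels in wild type lung were 6.08, 5.77 and 5.96 in control, 6.14, 5.52 and 5.42 at day 1, 4.97, 5.11 and 5.48 at day 4 and 6.11, 5.48 and 5.53 at day 10. Rag-1 null Tekt2 levels were 5.78, 5.82 and 5.86 in control, 5.17, 5.17 and 5.35 at day 1, 5.34, 5.07 and 5.13 at day 4 and 5.02, 5.48 and 5.59 at day 10. The wild type day 1 arrays overlapped with control because the first one was high, and the day 4 arrays did not overlap. Tekt2 fell by 0.75 ± 0.20 at day 4 in wild type lung (adjusted p = 0.00897, limma), by 0.59 ± 0.20 at day 1 in Rag-1 null lung (adjusted p = 0.0445) and by 0.64 ± 0.20 at day 4 (adjusted p = 0.0195). Over the settings tried, the Rag-1 null fall of Tekt2 at day 1 held in 20 and lost significance in 13. Tekt1, Tekt4 and Tekt5 had differences that did not pass. A second, dimmer probe for Tekt1 was at least 1.62-fold lower at day 1 in wild type lung, where 0 of 3 arrays detected it (adjusted p = 0.000755, limma).

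Intraflagellar transport genes fell at day 1 in wild type lung in 7 of 11 cases: Ift27 (2.14-fold), Ift81 (2.15-fold), Ift172 (2.04-fold), Ift22 (at least 1.67-fold), Ift43 (1.71-fold), Ift20 (1.54-fold) and Ift80 (at least 1.42-fold, with 0 of 3 day 1 arrays detecting it). Ift27 and Ift22 are small GTPase-like subunits, and Ift43 and Ift122 belong to the complex that returns cargo to the base of the cilium. Ift22 turned direction between days. Its wild type levels were 5.50, 5.67 and 5.62 in control lung, 4.65, 5.11 and 4.61 at day 1, 6.29, 6.02 and 6.02 at day 4 and 5.75, 5.63 and 5.63 at day 10. For Rag-1 null lung the Ift22 levels were 5.91, 5.46 and 5.94 in control lung, 5.56, 5.58 and 5.88 at day 1, 6.31, 6.31 and 5.83 at day 4 and 5.80, 5.78 and 5.57 at day 10. In wild type lung all day 1 arrays lay below and all day 4 arrays above the controls, and in Rag-1 null lung the groups overlapped. Ift22 fell at day 1 (fitted difference -0.81 ± 0.17, adjusted p = 0.000654, limma) and rose by 0.51 ± 0.17 at day 4 (adjusted p = 0.0328) in wild type lung. The Rag-1 null differences were -0.10 at day 1 and 0.38 at day 4 and did not pass. Ift52, Ift57 and Ift88 did not pass at day 1 in wild type lung. Of the 8 genes with several probes, 0 had probes called in opposite directions in any comparison. A second Ift172 probe rose by 0.86 ± 0.19 at day 4 in Rag-1 null lung (adjusted p = 0.00149), where the brightest probe did not pass.

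The BBSome genes Bbs2, Bbs7 and Bbs9 fell at day 1 in wild type lung, by 1.53-fold, at least 1.47-fold and 2.14-fold, and Bbs4 did not pass. Bbs9 levels in wild type lung were 6.80, 6.53 and 6.47 in control, 5.99, 5.19 and 5.32 at day 1, 6.07, 6.31 and 6.81 at day 4 and 6.79, 6.69 and 6.57 at day 10. Rag-1 null Bbs9 levels were 6.64, 6.91 and 6.95 in control, 6.55, 5.94 and 6.30 at day 1, 6.54, 6.19 and 5.93 at day 4 and 6.21, 6.28 and 6.48 at day 10. Every wild type day 1 array lay below the controls, day 4 overlapped with control, and every Rag-1 null LPS array lay below the Rag-1 null controls. Bbs9 fell by 1.10 ± 0.22 at day 1 in wild type lung (adjusted p = 0.000311, limma) and by 0.62 ± 0.22 at day 4 in Rag-1 null lung (adjusted p = 0.0362). The Rag-1 null difference at day 1 was -0.57 ± 0.22 (adjusted p = 0.0731).

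At day 4 the axonemal genes that fell in wild type lung were Dnaic1, Dnah8 and Tekt2, and no spoke gene passed. In all, 8 of the 36 genes fell and 2 rose, where 23.3% of all probes passed, and the median was -0.28. The genes that fell were Tppp3, Dnaic1, Ift80 (1.51-fold), Tekt2, Dnah8, Rfx2, Ift43 (1.69-fold) and Bbs2 (1.61-fold), and Spag5 and Ift22 rose. Rag-1 null lung at day 4 had 10 genes that fell and 2 that rose, where 27.2% of all probes passed, with a median of -0.31. Those that fell were Tppp3, Dnaic1 (2.17-fold), Rfx2, Bbs2 (1.87-fold), Dnali1 (at least 1.21-fold), Dnah8, Tekt2, Bbs9, Dnah9 and Ift43 (1.58-fold), and those that rose were Spag5 and Ift57 (1.37-fold). Bbs2, Dnah8, Dnaic1, Ift43, Spag5, Tppp3, Tekt2 and Rfx2 were called in the same direction in both genotypes, 80.0% of the wild type calls and 66.7% of the Rag-1 null calls. This overlap, too, was not counted over all probes. The share of the 36 genes called was close to the background in each genotype at this day. Without the first wild type day 1 array, which is in neither comparison but adds to the spread, 15 and 17 genes passed, at 31.7% and 34.4% of all probes. With array weights 19 passed in Rag-1 null lung (43.7%), and the deposited value table gave 17 in wild type lung (39.9%). Of the 14 alveolar type 2 markers, 2 fell in wild type and 10 in Rag-1 null lung at day 4. Without wild type day 4 replicate 1, 4 genes passed in wild type lung, and 7 passed in Rag-1 null lung without control replicate 3 or day 4 replicate 2 or 3. The share of all probes is not given for these fits, so these counts are not read as particular to the cilium genes.

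At day 10 in wild type lung 0 of 36 cilium genes passed by limma against control, where 2.05% of all probes passed, and 3 of the 36 had an unadjusted p under 0.05. The median was 0.05. In Rag-1 null lung 3 genes fell and 1 rose, where 8.87% of all probes passed, and the median was -0.16. The genes that fell were Tppp3 (1.82-fold), Dnaic1 (1.62-fold, adjusted p = 0.022) and Dnah8 (1.40-fold, adjusted p = 0.0475), and Spag5 rose 2.25-fold (adjusted p = 0.000761, limma). Without Rag-1 null control replicate 2 or 3, or day 10 replicate 1 or 2, 2 genes passed. With array weights 10 passed in Rag-1 null lung (25.2% of all probes), 9 of them lower, including Bbs2 and Bbs4. Without wild type control replicate 1, 1 gene passed in wild type lung. Counts here without a share of all probes are not read as particular to the cilium genes.

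From day 4 to day 10, 4 genes rose and 2 fell in wild type lung, where 15.0% of all probes passed, and the median was 0.38. Tppp3 rose 2.80-fold, Dnaic1 1.87-fold, Dnah8 1.64-fold and Dnali1 at least 1.29-fold, and Spag5 (2.13-fold) and Spag9 (1.38-fold) fell. In Rag-1 null lung Tppp3 (1.64-fold) and Rfx2 (1.37-fold) rose and 0 genes fell, where 9.66% of all probes passed, and the median was 0.12. Without the first wild type day 1 array these counts were 14 (21.8% of all probes) and 4 (15.5%). The Rag-1 null count was 0 without day 4 replicate 3, 4 without day 10 replicate 3, and 1 without any of 9 other libraries. With the slide as a block it was 1, and with array weights 11 genes passed in Rag-1 null lung (23.8% of all probes) and 16 in wild type lung (27.5%). Those counts that lack a share of all probes are not read as particular to the cilium genes.

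Spag5 followed another course than the axonemal genes. Its wild type levels were 4.85, 4.75 and 4.95 in control lung, 5.37, 4.86 and 5.12 at day 1, 6.20, 5.94 and 5.95 at day 4 and 4.98, 4.97 and 4.87 at day 10. Its Rag-1 null levels were 5.04, 4.85 and 4.99 in control lung, 4.72, 4.85 and 4.95 at day 1, 5.65, 5.77 and 5.83 at day 4 and 6.67, 6.35 and 5.36 at day 10. All day 4 arrays and all Rag-1 null day 10 arrays lay above every control array, and the last group was the most spread. Spag5 rose 2.27-fold at day 4 in wild type lung (1.18 ± 0.21, adjusted p = 0.000384, limma) and 1.73-fold in Rag-1 null lung (adjusted p = 0.00744). Of 19 measured genes of cell division, a list without Spag5, 19 rose in wild type lung at day 4, 16 in Rag-1 null lung at day 4, 17 in Rag-1 null lung at day 10 and 1 in wild type lung at day 10. The summed level of that list ran from 727 to 821 in wild type controls and from 1613 to 2178 at day 4, and from 1246 to 2948 in Rag-1 null lung at day 10. Its part in the Spag5 result was not tested.

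Between the genotypes, 0 of 36 cilium genes passed by limma in control lung, where 1.28% of all probes passed, and 3 of the 36 had an unadjusted p under 0.05. The differences ran from -0.31 to 0.52, with a median of 0.02. At day 1, 6 genes were higher and Spag9 was lower in Rag-1 null than in wild type lung, where 24.3% of all probes passed, and the median was 0.12. Those 6 were Ift27 (1.97-fold), Ift22 (at least 1.76-fold), Ift20 (2.01-fold), Bbs9 (1.70-fold), Rfx2 (1.39-fold) and Ift172 (1.62-fold). Without the first wild type day 1 array 12 genes were higher (32.6% of all probes), and with only the compared arrays 0 passed (5.93%). Without Rag-1 null day 1 replicate 1, 4 passed, a count given without its share of all probes. With array weights 13 were higher (33.4%). At day 4, 0 genes passed by limma, where 0.539% of all probes passed, and 0 had an unadjusted p under 0.05. The day 4 differences ran from -0.34 to 0.41. At day 10 Tppp3 (1.68-fold, adjusted p = 0.00736) and Dnah8 (1.73-fold, adjusted p = 0.00232) were lower and Spag5 (2.28-fold, adjusted p = 0.00126) was higher in Rag-1 null lung, where 5.52% of all probes passed, and the median was -0.19. With array weights 11 passed at day 10 (24.1%).

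The difference of the LPS response between genotypes was tested as an interaction. At day 1, 1 of 36 genes passed, where 8.21% of all probes passed, and it was Ift27 by its brightest probe, while the median over the 36 was 0.24. Its levels were 6.56, 6.66 and 6.61 in wild type control lung and 5.98, 5.21 and 5.36 at day 1, and 6.39, 6.75 and 6.98 in Rag-1 null control lung and 6.44, 6.45 and 6.59 at day 1. The wild type day 1 arrays lay below all others, and the Rag-1 null day 1 arrays overlapped with control. The Rag-1 null response was higher by 0.88 ± 0.26 (adjusted p = 0.0395, limma). Without the first wild type day 1 array 8 genes passed (17.1% of all probes), all with a smaller fall or none in Rag-1 null lung: Bbs7, Ift172, Ift20, Ift27, Ift43, Ift52, Ift81 and Rsph1. With only the compared arrays 0 passed (3.74%). Without wild type day 1 replicate 2, 2 passed, and without any of 9 other arrays of these 4 groups 0 passed. No share of all probes is given for these leave-out fits. With the slide as a block 0 passed, and with array weights 6 passed (18.4%). A second Ift27 probe did not pass (0.29 ± 0.18, adjusted p = 0.35), while second probes of Ift172 (0.94 ± 0.27, adjusted p = 0.0332) and Ift20 (0.84 ± 0.20, adjusted p = 0.0114) did, where their brightest did not. The response of Tppp3 differed by -0.07, with a 95% interval from -0.56 to 0.42.

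At day 4, 0 genes passed the interaction by limma, where 0% of all probes passed, and 2 had an unadjusted p under 0.05. Spag7 had the smallest adjusted p, 0.293. At day 10, 0 of 36 passed by limma, where 1.52% of all probes passed, and 6 had an unadjusted p under 0.05. The median was -0.23. The differences were -0.77 ± 0.24 for Tppp3 (95% interval -1.27 to -0.28, adjusted p = 0.105), 1.08 ± 0.30 for Spag5 (0.45 to 1.71, adjusted p = 0.0731) and -0.64 for Dnah8 (adjusted p = 0.139). Without the first wild type day 1 array Tppp3 and Spag5 passed, with adjusted p of 0.0442 and 0.0399 by limma and 3.6% of all probes called, and 1 gene passed without wild type control replicate 1 or without Rag-1 null day 10 replicate 3. With array weights 6 passed (12.5%).

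**Figure D3:**
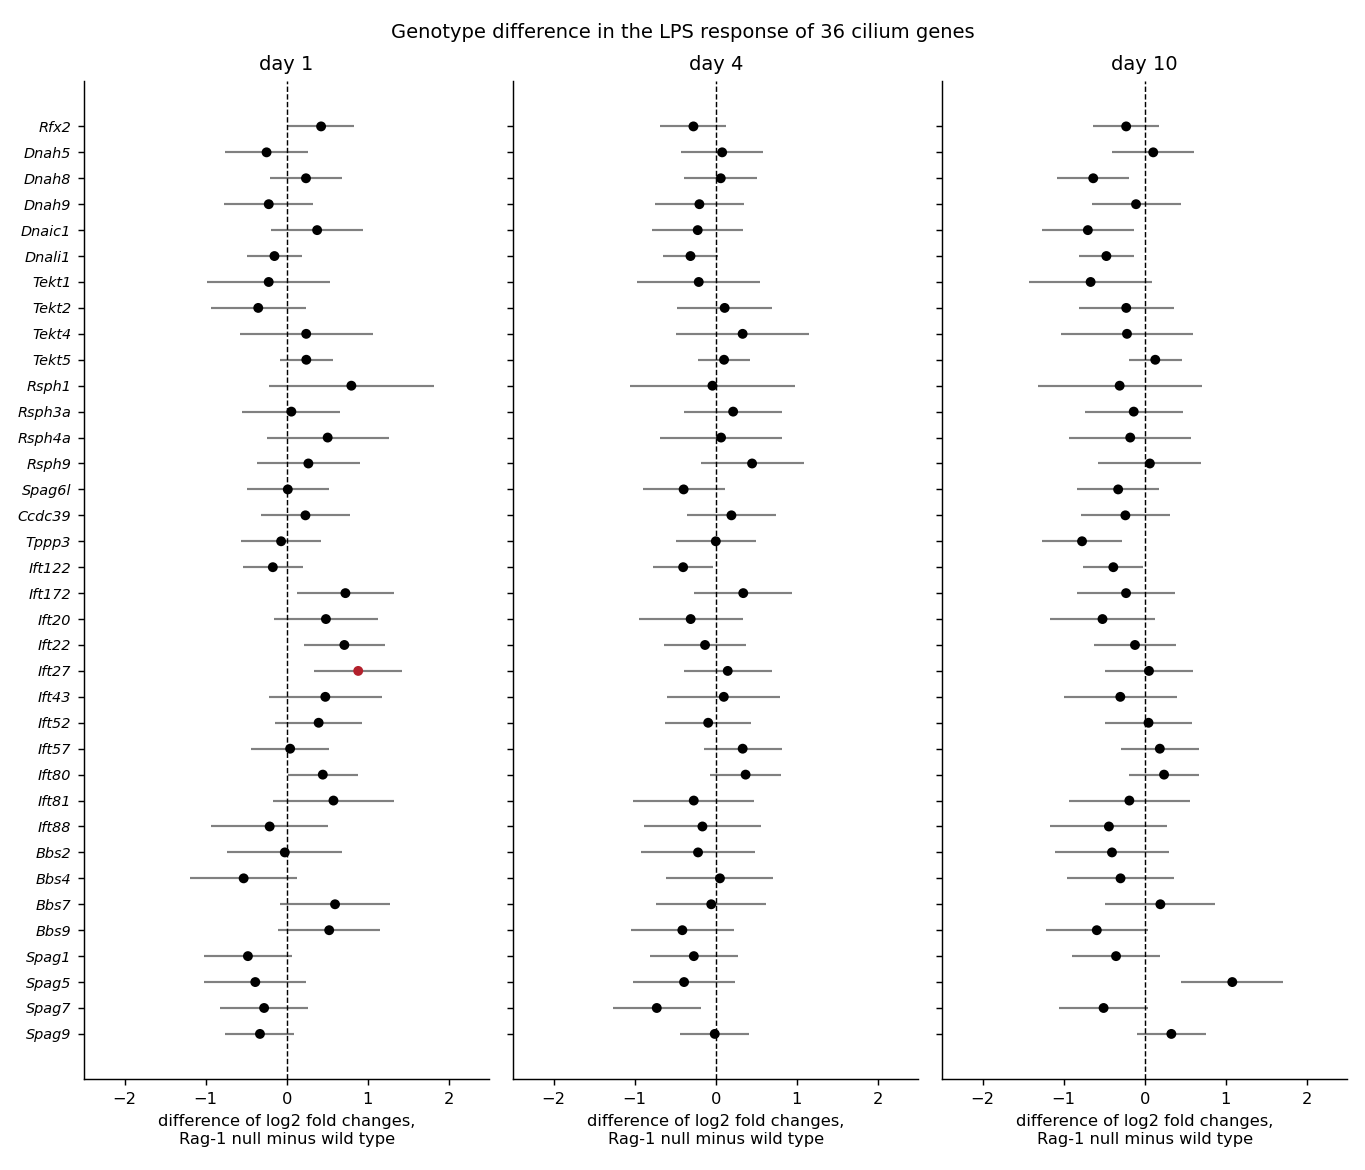
Difference of the log2 fold change after LPS, Rag-1 null minus wild type, for each of the 36 genes at days 1, 4 and 10; points are estimates, grey lines are 95% intervals, and red marks an adjusted p under 0.05. Ift27 at day 1 is the one red point, and Tppp3 and Spag5 stand to opposite sides of 0 at day 10.

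Other genes known from multiciliated cells were taken as a list. It held 176 genes, none of them among the 36, and 70 were measured. At day 1, 20 of the 70 fell and 1 rose in wild type lung and 9 fell in Rag-1 null lung, with medians of -0.29 and -0.30, and these shares are near the background. Among those that fell in both were the dynein genes Dynlrb2 (-1.90 ± 0.29 in wild type and -1.05 ± 0.29 in Rag-1 null lung) and Wdr78 (-1.35 ± 0.20 and -0.80 ± 0.20). Cfap69 went the other way in wild type lung and rose by 1.94 ± 0.19. At day 4, 6 fell and 2 rose in wild type lung, and 5 fell and 2 rose in Rag-1 null lung, shares of the 70 below the 23.3% and 27.2% of all probes called. The day 4 medians were -0.10 and -0.21. At day 10, 0 passed in either genotype by limma, where 2.05% (wild type) and 8.87% (Rag-1 null) of all probes passed. An unadjusted p under 0.05 was found for 11 in wild type and 2 in Rag-1 null lung. From day 4 to day 10, 10 rose and 2 fell in wild type lung, where 15.0% of all probes passed. In Rag-1 null lung 0 rose and 2 fell over those days, where 9.66% of all probes passed.

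Most of that list lay below 0 at day 4, 45 of 70 in wild type and 52 of 70 in Rag-1 null lung. In each genotype 2 of the 70 rose there. A pair of its genes, picked after their values were seen and each passing in a single genotype, act early when a cell forms many cilia. They are Ccno, a cyclin family gene, and Deup1, which serves centriole amplification. Ccno levels in wild type lung were 5.83, 5.24 and 5.68 in control, 5.74, 7.07 and 5.67 at day 1, 6.55, 6.30 and 6.77 at day 4 and 5.37, 4.69 and 4.98 at day 10. Rag-1 null Ccno levels were 5.99, 5.45 and 5.77 in control, 5.27, 4.97 and 5.26 at day 1, 6.54, 6.65 and 6.35 at day 4 and 5.10, 5.28 and 6.11 at day 10. The day 4 arrays lay above all controls in each genotype. Ccno rose by 0.95 ± 0.30 at day 4 in wild type lung (adjusted p = 0.0241, limma), and the Rag-1 null difference of 0.78 ± 0.30 did not pass (adjusted p = 0.0583). Deup1 rose by 0.46 ± 0.16 at day 4 in Rag-1 null lung (adjusted p = 0.0379), and its wild type difference of 0.26 ± 0.16 did not pass (adjusted p = 0.271). Its control levels were near the dimmest detected probe, so the size of its rise is uncertain. They were 4.43 in Rag-1 null control 3, where that probe read 4.56, and 4.52 in wild type control 2, where it read 4.73. From day 4 to day 10 Ccno fell by 1.52 ± 0.30 in wild type and by 1.02 ± 0.30 in Rag-1 null lung.

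Levels of airway and heart genes differed between lungs of one group. The mean level of 25 club and secretory cell genes was 8.76, 7.49 and 7.22 in the wild type controls, and that of 6 heart muscle genes was 8.03, 6.06 and 5.34. The array with the highest mean over the 36 cilium genes was also the highest for the club list in 6 of 8 groups and for the heart list in 6 of 8. It was so in 6 groups for smooth muscle and 5 for tracheal cartilage. For alveolar type 2, neutrophil and macrophage genes it was so in 4, 3 and 2. The summed level of the club list ran from 24450 to 33580 in wild type control lung, 19440 to 26650 at day 1, 13930 to 22660 at day 4 and 24660 to 29470 at day 10. In Rag-1 null lung it ran from 26250 to 31670, 15370 to 20100, 14010 to 24530 and 19400 to 23660. For the heart list the sums were 303 to 3186, 404 to 3446, 201 to 867 and 1704 to 3241 in wild type lung, and 830 to 2905, 354 to 571, 219 to 1009 and 516 to 1814 in Rag-1 null lung. The normalized scale has no zero, so no marker is listed at 0.

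Of the 25 club genes, 9 fell and 1 rose in wild type lung at day 1, and 11 fell and 1 rose at day 4. The day 1 share is that of all probes, of which 39.2% were called, and at day 4 23.3% were. In Rag-1 null lung 9 fell and 1 rose at day 1, 11 fell and 2 rose at day 4, and 8 fell and 1 rose at day 10, against 16.9%, 27.2% and 8.87% of all probes. Of 15 neutrophil genes, 13 and 11 rose at day 1 in wild type and Rag-1 null lung, and 9 and 15 at day 4. Their summed level ran from 1463 to 9330 in wild type and 1990 to 2104 in Rag-1 null controls, and from 12130 to 20080 and 14000 to 17030 at day 1. At day 4 it ran from 6752 to 15940 and from 13490 to 21200. The part of airway epithelium, heart or neutrophil content in the cilium results was not tested. Across the 6 control arrays the club mean spanned 7.22 to 8.76 and the heart mean 5.34 to 8.17. Over the same arrays Tppp3 stayed within 8.58 to 8.82, Rfx2 within 6.99 to 7.16 and Dnaic1 within 5.92 to 6.08. Rsph1 spanned 7.03 to 8.02 and Tekt1 5.32 to 6.62.

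**Figure D4:**
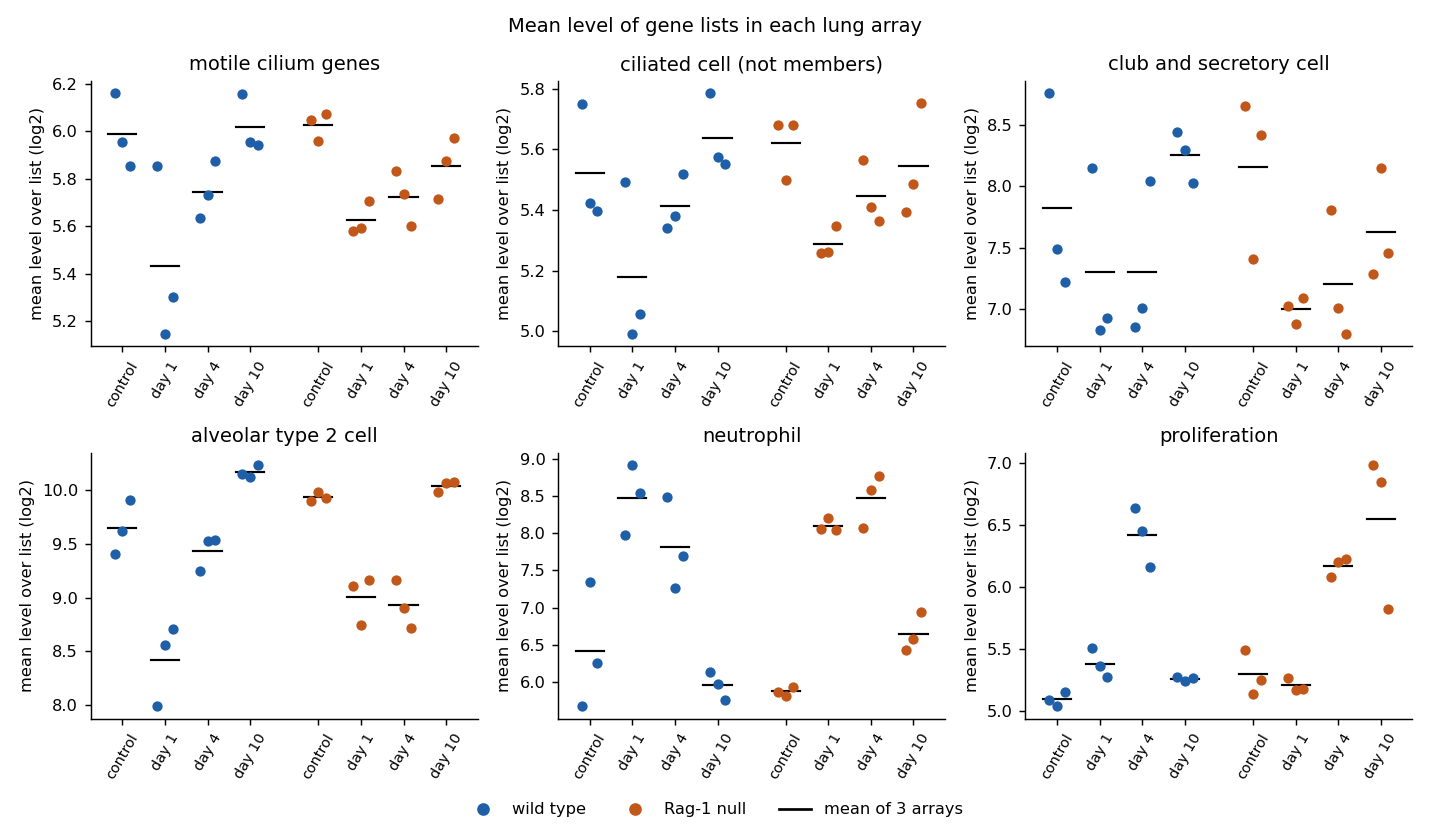
Mean log2 level over the 36 cilium genes and over 5 marker lists (1 panel each) in every array, by genotype and day after LPS; points are arrays and black lines are means of 3 arrays. The cilium mean is lowest in the last 2 wild type day 1 arrays, at 5.14 and 5.30, while the first, at 5.86, lies level with the lowest control, and the club list shows the same high first array.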

How the data were processed

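RNA from whole mouse lung was measured on 24 Illumina beadchip arrays, 3 for each of 8 groups. Per the file headers, the authors deposited an average bead signal intensity for each probe and array, with a detection score as a fraction from 0 to 1; neither had been log-transformed. A second deposited table holds log2 values for 13029 of the 24046 probes. Set against the scanner values, each of its columns was the log2 signal of 1 array minus a constant, which settles its scale and direction; how its probes were chosen is not stated. Its column medians ran from -0.546 to -0.371, and it served as an alternative. In the scanner table the title line named another sample than the column's own for 22 of 24 arrays. Each array was therefore matched to its sample by identity with the value table on a common scale: the own column differed by at most 0.0005, and every other column by at least 1.42. The arrays lie on 3 slides of 8, 1 array per group on each, so position on the slide and group cannot be told apart. Each slide carries 1 replicate number.

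Intensities were background-corrected with detection-derived negative controls, quantile-normalized and log2-transformed (neqc, offset 16, limma 3.58.1 in R 4.3.3 with statmod 1.5.0). Probes with a detection p under 0.05 (score over 0.95) on at least 3 arrays were tested, 13544 in all. A model with 8 group means and an intensity trend was fitted (lmFit, eBayes), two-sided, with Benjamini-Hochberg adjustment over all probes. A gene is its brightest tested probe. The code was tested on simulated data. Gene names came from the platform annotation, which named 1 gene for 11733 probes and none for 1296. Group labels came from the sample titles. The members and lists were chosen with earlier results of these data known. Every member is named. Levels in every array are given for Tppp3 and for the gene of each role with the smallest F-test p over the 6 comparisons of LPS with control, 8 genes in all, and for Ift27 and Ccno, chosen after their values were seen. In each comparison up to 12 genes that passed are named by smallest adjusted p, and at day 1 in wild type lung the others are named with their role. Between same-numbered samples the median correlation of deviations was 0.00432, 0.0653 and 0.088 for the 3 numbers. It was over 0.1 in 10, 9 and 13 of 28 pairs, with highest values of 0.372, 0.281 and 0.254. The numbers were not used to pair the samples in the main fit, and the low medians do not exclude a slide effect. Alternatives changed the background correction, normalization, detection filter, array weights, block, the arrays in the fit and each replicate in turn.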

Additional observations from a re-analysis of the deposited data

Results flagged for a closer look

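By its brightest probe, Ift27 was the one cilium gene of 36 whose day 1 response to LPS passed the test of the difference between genotypes. Its second probe did not pass (0.29 ± 0.18, adjusted p = 0.35, limma), and the second probes of Ift172 and Ift20 did. The response was higher in Rag-1 null than in wild type lung by 0.88 ± 0.26 on the log2 scale (adjusted p = 0.0395, limma), and the direction was the same on all 3 slides. The first wild type day 1 array, the one that stood apart, lay nearer to the controls than the other two; without it the difference was 1.11 (adjusted p = 0.0016). With the slide as a block, without the detection filter, without background correction, in the deposited value table or with only the compared arrays it did not pass.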

How the results depend on the processing

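In the settings tried for the named genes, the side of the threshold and the direction held in 1530 cases, significance was lost in 40 and gained in 14, and the direction turned in 0. Changes of the fit moved the share of all probes called too, in the same direction as the cilium count wherever both are given above. Counts without that share are therefore not read as particular to the cilium genes. Counts of cilium genes called moved by over 1.5 times as follows, and the cause was not tested. With array weights they were 1 for wild type day 10, and 22, 19 and 10 for Rag-1 null days 1, 4 and 10, 16 and 11 from day 4 to day 10 in wild type and Rag-1 null lung, 13 and 11 between genotypes at days 1 and 10, and 6 and 6 for the genotype difference of the response at days 1 and 10. The deposited value table gave 17 and 2 for wild type days 4 and 10, 12 for Rag-1 null day 1, 12 from day 4 to day 10 in wild type lung, 1 between control lungs, and 0 and 2 for the response difference at days 1 and 10. With only the compared arrays, fewer samples set the spread, and the counts were 11 and 23 at day 1 in wild type and Rag-1 null lung, 13 from day 4 to day 10 in wild type lung, 0 and 5 between genotypes at days 1 and 10, and 0 and 1 for the response difference at those days. From day 4 to day 10 in Rag-1 null lung the count was 1 with cyclic loess, 1 with no detection filter and 1 with the replicate block. The response difference at day 1 was 0 without background correction, 0 with no detection filter and 0 with the replicate block, and at day 10 it was 1 with cyclic loess. The replicate block, which is also the slide, changed no other count by over 1.5 times, and as a random block its correlation was 0.0155. Leaving out each replicate gave 18 to 24, 4 to 15 and 0 to 1 genes for wild type days 1, 4 and 10, 4 to 17, 7 to 17 and 2 to 5 for the same Rag-1 null days, 4 to 14 and 0 to 4 from day 4 to day 10, 0 to 1, 4 to 12, 0 to 0 and 2 to 4 between genotypes from control to day 10, and 0 to 8, 0 to 0 and 0 to 2 for the response difference. Where that leaves 2 samples in a group, they are assumed to vary like the other groups. Signal over background limits dim probes: Dnali1, Dnah9 and Ift80 were below detection in whole groups, others were detected on 1 array of 3, and their folds are bounds.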
